A study of Mus musculus with 10 samples.

Results

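The MYC and MAX network is a family of transcription factors of the basic helix-loop-helix leucine zipper class, and its 10 genes were followed here through leukemia-prone hematopoietic progenitors with and without miR-126. The genes were Myc, Mycn, Mycl, Max, Mxd1, Mxd3, Mxd4, Mxi1, Mnt and Mlx, picked by name from the 25078 genes of the count table, and all 10 were found, each with at least 10 reads in every library. RNA sequencing was performed on LSK cells, the lineage-negative Sca1+ cKit+ fraction of bone marrow that holds stem and early progenitor cells, with 1 library per mouse. The 5 CM mice carried a conditional Cbfb-MYH11 knock-in allele and the Mx1-Cre transgene (Cbfb56M/+/Mx1-Cre), and the 5 CM/miR-126Δ/Δ mice carried these and homozygous floxed miR-126 alleles. Mx1-Cre is switched on by interferon, so it acts in many tissues and not only in blood cells. All 10 mice had been given poly(I:C), and their cells were taken at the preleukemic stage, 6 weeks after induction, so every mouse carried the induced knock-in allele, and the comparison holds no wild-type mouse. By the sex-linked transcripts, each genotype had 3 females and 2 males. Libraries held 23649233 to 33202086 counted reads.

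MYC proteins bind DNA only as dimers with MAX, and the MYC-MAX dimer activates genes of ribosome production, nucleotide synthesis and cell growth through the E-box sequence CACGTG. The MXD proteins, MXI1 and MNT compete for MAX at the same sequence and recruit the SIN3 and histone deacetylase corepressors, while MLX pairs with some MXD proteins, with MNT and with the glucose sensors MLXIP and MLXIPL. In blood stem cells MYC and MYCN are known to act redundantly in proliferation and survival, and differentiation is accompanied by a shift from MYC to MXD partners.

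The labels were first checked against the deleted gene. Mir126a, the precursor that gives miR-126, held 4, 5, 0, 2 and 3 reads in CM mice 1 to 5 and 0 reads in each of the 5 CM/miR-126Δ/Δ mice, and its host gene Egfl7 had 114 ± 20.0 CPM (mean ± SD, n = 5) in CM against 107 ± 12.2 CPM (n = 5) in CM/miR-126Δ/Δ mice. CPM is the read count of a gene scaled to the size of its library. With 14 reads in total the check is thin, because these libraries were not made for small RNAs. No library went against its label, but CM mouse 3, with 0 reads, was not told apart from the CM/miR-126Δ/Δ mice. In CM/miR-126Δ/Δ mice a count of 0 allowed a level of up to 0.111 to 0.131 CPM, the level of 3 reads, by counting error only.

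Because the genotypes differ by a microRNA, its sequence is given with the place where it pairs. Mature miR-126a-3p (chr2:26591402-26591423, plus strand, build GRCm38.p6, RefSeq) is shown with its seed, bases 2 to 8, in capitals, and below it are the matches in the 3′ untranslated regions of Spred1 and Plk2, the targets that the study follows, with the match to bases 2 to 7 of the seed in capitals.
miR-126a-3p: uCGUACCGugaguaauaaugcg
Spred1: ctaaatgtaaGGTACGaactatgaca
Plk2: gacaggtggtGGTACGaatacaattc
None of the 10 network genes held this 6-base match, GGTACG, in its longest 3′ untranslated region of the reference transcripts (GENCODE M1, 466 bases in Myc to 4074 bases in Mxi1), where 3.58% of 9638 expressed genes did. A missing match says only that these letters are not in these sequences.

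The E-box itself was looked for in the window from 250 bases before to 50 bases after each RefSeq start. Promoters were found for 9 of the 10 genes, with 11 starts because Mxi1 has 3, and Myc had no entry. The sequence CACGTG, which reads the same on both strands, was present in 4 of these 11 windows (36.4%), in 10.2% of 11506 windows of expressed genes and in 7.15% of all 32851. The 4 were those of Max, Mxd4, Mnt and Mlx, so that the common partner and its alternative partner were among them. A stretch of 60 bases around each is shown 5′ to 3′ on the gene's strand, with the E-box in capitals.
Max (chr12:76962219-76962278, minus strand, first E-box base 3 bases before the start): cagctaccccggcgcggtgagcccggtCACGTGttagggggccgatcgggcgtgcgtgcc
Mxd4 (chr5:34187897-34187956, minus strand, 219 bases before): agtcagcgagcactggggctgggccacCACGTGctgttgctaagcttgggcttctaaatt
Mnt (chr11:74830774-74830833, plus strand, 123 bases before): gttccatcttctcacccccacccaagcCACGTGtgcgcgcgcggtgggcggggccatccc
Mlx (chr11:101087223-101087282, plus strand, 40 bases before): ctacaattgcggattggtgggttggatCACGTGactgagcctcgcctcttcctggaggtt
Coordinates are of GRCm38.p6. These are sequence matches, and no binding was measured.

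Myc (chr15:61985341-61990361, plus strand, mm10, as in the count table) was by far the most abundant member. Levels between genes were compared as RPKM, reads per kilobase of exon scaled to the size of the library. Myc was measured at 223, 163, 197, 198 and 216 RPKM in CM mice 1 to 5 and at 167, 176, 232, 144 and 166 RPKM in CM/miR-126Δ/Δ mice 1 to 5. The groups overlapped, since CM/miR-126Δ/Δ mouse 3 had the highest level of all and CM mouse 2 one of the lowest. With a mean of 188 RPKM over the 10 mice Myc ranked 114th of 11682 genes with a mean of at least 1 RPKM in at least 1 genotype. Between genotypes the mean was 199 ± 23.3 RPKM in CM and 177 ± 32.6 in CM/miR-126Δ/Δ mice (SD, n = 5 each). The log2 fold change, here always CM/miR-126Δ/Δ relative to CM, was -0.17 (SE 0.118, edgeR quasi-likelihood test, adjusted p = 0.765), and the exact permutation test over the mice gave p = 0.214. The 95% interval of the change ran from 0.744-fold to 1.06-fold. Without CM/miR-126Δ/Δ mouse 3 the log2 fold change of Myc was -0.29 (unadjusted p = 0.00989), and without CM/miR-126Δ/Δ mouse 4 it was -0.10.

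Mycn (chr12:12936093-12941836, minus strand), the paralog best known from neural tissue, was the most variable of the members above 10 RPKM. Its levels were 19.6, 13.4, 8.55, 12.3 and 16.4 RPKM in CM mice 1 to 5 and 20.5, 15.5, 12.5, 14.5 and 15.4 RPKM in CM/miR-126Δ/Δ mice 1 to 5. The highest value of each genotype was that of mouse 1 and the lowest that of mouse 3, so that the mice of either genotype spread over a wider range than the difference of the means. The range over all 10 mice was 2.40-fold and the coefficient of variation 23.7%, where the median of the 11682 genes was 9.84%. The log2 fold change was 0.16 (SE 0.181, edgeR, adjusted p = 0.845), with an interval from 0.852-fold to 1.46-fold, and it ran from 0.04 without CM mouse 3 to 0.32 without CM mouse 1. With the mouse number as a block in the fit it was 0.19 (edgeR, unadjusted p = 0.0438, adjusted p = 0.54).

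Mycl, the third paralog, was barely present. It had 34 to 100 reads per library, equal to 0.496 to 0.901 RPKM in CM and 0.375 to 1.00 RPKM in CM/miR-126Δ/Δ mice, and was the only member below a mean of 1 RPKM. In the CM/miR-126Δ/Δ mice its values lay in separate ranges, 3.53 and 3.68 CPM in mice 3 and 4 and 1.37 to 1.69 CPM in the other 3. Its interval, from 0.578-fold to 1.36-fold, was the widest of the 10.

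Max (chr12:76937269-76962248, minus strand), the obligate partner, varied little. Its levels in CM mice 1 to 5 were 40.9, 37.6, 41.3, 40.9 and 37.8 RPKM, and in CM/miR-126Δ/Δ mice 1 to 5 they were 34.4, 37.1, 41.0, 36.6 and 36.6 RPKM. In 4 of the 5 CM/miR-126Δ/Δ mice the level was below that of every CM mouse, and mouse 3 was the exception. The log2 fold change was -0.10 (SE 0.0563, unadjusted p = 0.105 and adjusted p = 0.765 by edgeR), with p = 0.0635 in the exact permutation test and an interval from 0.860-fold to 1.02-fold. Without CM/miR-126Δ/Δ mouse 3 the change was -0.14 (unadjusted p = 0.0255), and without CM/miR-126Δ/Δ mouse 1 it was -0.06.

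Among the antagonists Mxd4 and Mnt were the most abundant and Mxd3 the least. Mxd4 was measured at 33.2 to 40.5 RPKM in CM and at 33.7 to 43.1 RPKM in CM/miR-126Δ/Δ mice, and made up 45.6% ± 2.65 (SD, n = 10) of the summed RPKM of Mxd1, Mxi1, Mxd3, Mxd4 and Mnt. This level rests on the gene model: the count table gives Mxd4 an exon length of 1179 bases, whereas the longest reference transcript has 3872, and divided by the latter its mean would be 11.3 in place of 37.2 RPKM. With the longest transcripts of all 5 genes its share would be 21.7% ± 1.83. Mnt, which is expressed in dividing and resting cells alike, was measured at 15.4 to 20.1 RPKM in CM and 17.5 to 19.6 RPKM in CM/miR-126Δ/Δ mice. Mxd1, which is known to rise when myeloid cells differentiate, was measured at 9.30 to 10.9 RPKM in CM and, in CM/miR-126Δ/Δ mice, from 8.27 RPKM in mouse 3 to 11 RPKM in mouse 4. Mxd3 ranged from 2.75 to 4.42 RPKM over all 10 mice, with 82 to 163 reads per library. In each of these 4 genes the ranges of the genotypes overlapped, and the fold changes lay between -0.04 and 0.06 on the log2 scale.

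Mxi1 (chr19:53310506-53373293, plus strand) was the member with the most even level among CM mice. Its values there were 12.9, 13.1, 13.2, 13.1 and 13.2 RPKM, a coefficient of variation of 1.16%, below the 2.62% that counting error alone gives on average at this depth. In CM/miR-126Δ/Δ mice 1 to 5 the values were 13.8, 13.5, 12.5, 12.4 and 11.2 RPKM, with a coefficient of variation of 7.82% where counting error gives 2.89%. All 5 CM mice lay inside the range of the CM/miR-126Δ/Δ mice, and the means differed by a log2 fold change of -0.04 (SE 0.0597, edgeR, adjusted p = 0.872). Without CM/miR-126Δ/Δ mouse 5 the change was -0.004. The difference in spread was not tested.

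Mlx, the alternative partner, was measured at 11.9 to 14.6 RPKM in CM and 11.2 to 13.8 RPKM in CM/miR-126Δ/Δ mice, with a log2 fold change of -0.09 (SE 0.0844, edgeR, adjusted p = 0.779). The change was -0.03 without CM mouse 1 and -0.12 without CM/miR-126Δ/Δ mouse 4.

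**Figure D1:**
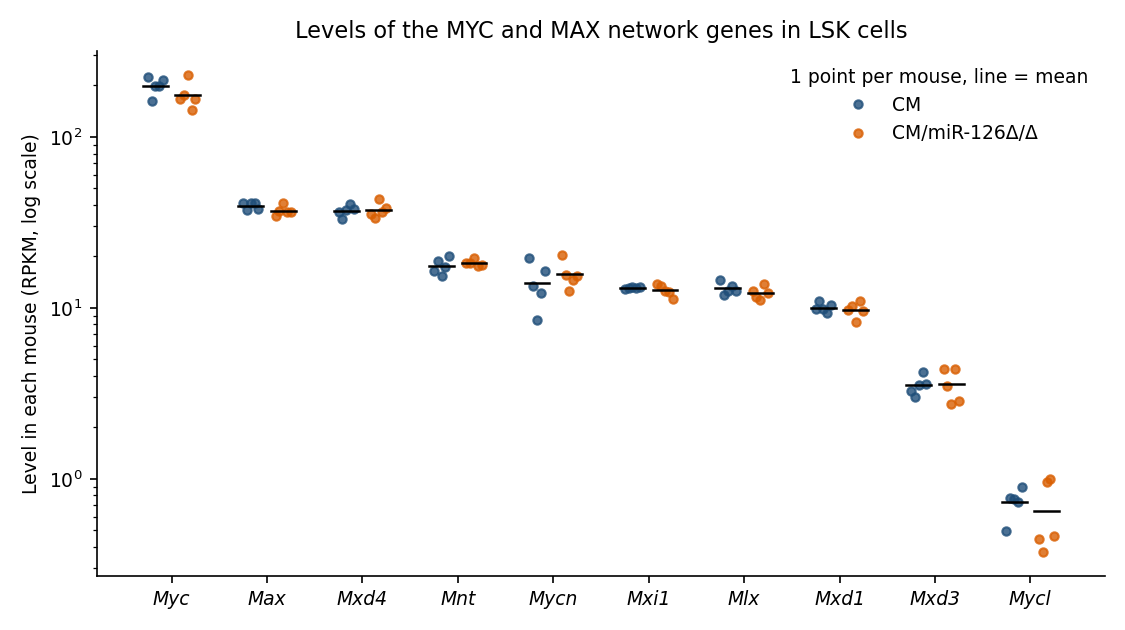
Level of each network gene in each of the 10 mice as RPKM on a log axis, ordered by mean level, with 1 point per mouse (CM blue, CM/miR-126Δ/Δ orange) and a line at the mean of each genotype. Myc stands at 144 to 232 RPKM, Max and Mxd4 at 33.2 to 43.1 RPKM, and Mycl at 0.375 to 1.00 RPKM, and the genotypes overlap in every gene.

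The members spanned a wide range of levels, with some steps that held in every mouse and some neighbors of like level. By mean RPKM over the 10 mice it was Myc (188), Max (38.4), Mxd4 (37.2), Mnt (18.0), Mycn (14.9), Mxi1 (12.9), Mlx (12.6), Mxd1 (9.90), Mxd3 (3.56) and Mycl (0.691). Myc exceeded Max in 10 of 10 mice, with a median ratio of 4.81. Max and Mxd4 were not separated, since Max was the higher in 6 of 10 mice with a median ratio of 1.01. Mnt exceeded Mycn in 8, Mycn exceeded Mxi1 in 7 and Mxi1 exceeded Mlx in 6 of 10 mice, so these neighbors were not separated in every mouse, although Mnt exceeded both Mxi1 and Mlx in 10 of 10. The steps from Mxd4 to Mnt, from Mlx to Mxd1, from Mxd1 to Mxd3 and from Mxd3 to Mycl held in all 10 mice. With the longer transcript model Mxd4 would move from the third place to between Mlx and Mxd1, and Mxi1, whose exon length is 3813 bases in the table and 5156 in the longest transcript, would have 9.53 RPKM and stand below Mxd1.

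Summed over genes on the RPKM scale, MYC paralogs exceeded their antagonists in every mouse. The summed RPKM of Myc, Mycn and Mycl was 2.63 ± 0.312 times that of the 5 antagonists in CM and 2.36 ± 0.318 times in CM/miR-126Δ/Δ mice (SD, n = 5 each), and the lowest ratio of any mouse was 1.96. This ratio depends on the length given to Mxd4 and Mxi1, and with the longest reference transcripts it would be 4.22 ± 0.540 in CM and 3.77 ± 0.601 in CM/miR-126Δ/Δ mice, a choice made after seeing the data. Myc alone supplied 93.1% ± 1.56 of the paralog RPKM in CM and 91.3% ± 2.09 in CM/miR-126Δ/Δ mice, and Mycn 6.53% ± 1.58 in CM. The ratio of Myc to Mycn ran from 8.14 in CM/miR-126Δ/Δ mouse 1 to 23.1 in CM mouse 3. These are transcript levels, and protein was not measured in these libraries.

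Between genotypes no member passed the test. Of the 10, 0 had an adjusted p under 0.05 in the edgeR quasi-likelihood test, where 0.0107% of the 18747 genes tested did, and 0 had an unadjusted p under 0.05, where 6.61% did. The study's own cutoffs of p at most 0.01, a change of at least 1.5-fold and an RPKM of at least 1 were met by 0 members and by 0.288% of genes. In 0 members were the genotypes fully separated, as they were in 1.1% of genes. DESeq2 called 0 members too, at an adjusted or an unadjusted p under 0.05. The fitted change was below 0 in 6 members and above 0 in 4, where it was below 0 in 9865 of the 18747 genes tested. With 1 mouse left out the sign turned for Mxd1 (up to 0.01), Mxd3 (down to -0.05) and Mxd4 (down to -0.04). The 95% interval lay within 1.5-fold in either direction for 9 members, with Mycl the exception, and within 2-fold for all 10. Each interval is of a single gene in the fit with all mice and is not adjusted for the reading of 10 together. Larger changes are therefore not excluded.

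**Figure D2:**
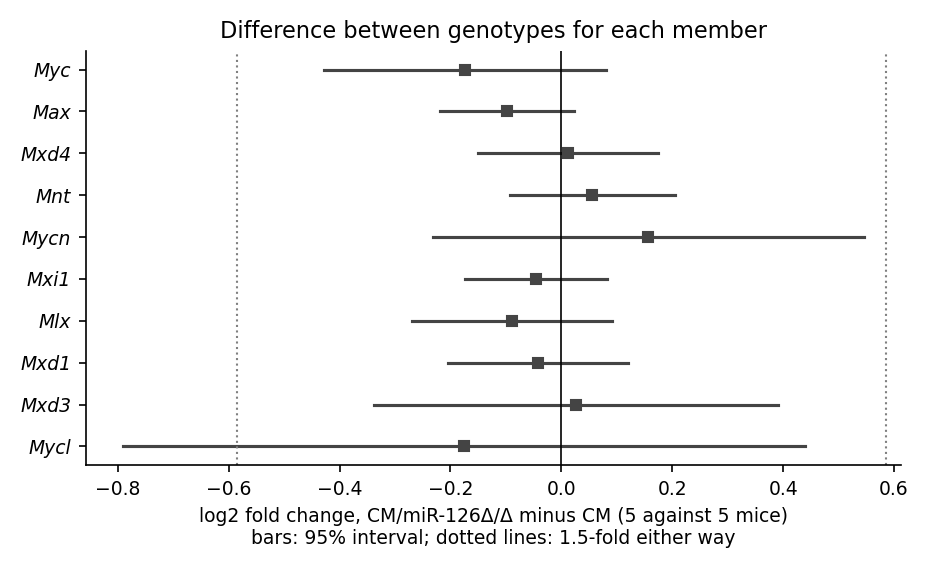
Log2 fold change of each network gene, CM/miR-126Δ/Δ relative to CM (5 against 5 mice), as squares with bars for the 95% interval of the edgeR fit and dotted lines at 1.5-fold either way. Every interval crosses 0, and only the interval of Mycl reaches past a dotted line.

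Neighboring genes were checked because reads of overlapping genes may be shared, and the strand setting of the counting was not given in the sources used here. Mxd3 overlapped Prelid1 on the opposite strand by 103 bases and Mlx overlapped Psmc3ip by 67 bases, and the log2 fold changes of these neighbors were -0.03 and 0.00. The gene nearest to Myc was Pvt1, a noncoding RNA gene 47625 bases away, with a log2 fold change of -0.06. These neighbors were chosen after their values were seen.

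Genes that MYC is known to induce, many of them for ribosome production and metabolism, mostly had small negative changes, and none passed after adjustment. Of a list of 32, 8 were lower in CM/miR-126Δ/Δ mice and 0 higher at an unadjusted p under 0.05 (edgeR). The background was 3.32% lower and 3.29% higher of all genes, and 4.46% lower of the 11682 genes with at least 1 RPKM. In total 30 of the 32 had a fitted change below 0, with a median log2 fold change of -0.14 where the median of all genes tested was -0.01 and of those with at least 1 RPKM -0.02. Below 0 were 9865 of the 18747 genes tested and 6719 of the 11682 with at least 1 RPKM. The study had already reported from its LSK libraries that sets of MYC targets were lower in CM/miR-126Δ/Δ mice. The list was chosen with earlier results of these data known, so its counts are a description and no independent support. Gnl3, which encodes nucleostemin of the nucleolus, was measured at 138, 126, 126, 115 and 112 CPM in CM mice 1 to 5 and at 101, 94.7, 98.5, 117 and 101 CPM in CM/miR-126Δ/Δ mice 1 to 5. CM/miR-126Δ/Δ mouse 4 alone reached into the range of CM. Its log2 fold change was -0.27 (SE 0.0699, edgeR p = 0.00182, adjusted p = 0.514, exact permutation p = 0.0238).

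Shmt2, the mitochondrial serine hydroxymethyltransferase of one-carbon metabolism, ranged from 124 to 154 CPM in CM and from 108 to 134 CPM in CM/miR-126Δ/Δ mice, with a log2 fold change of -0.24 (edgeR p = 0.00748, adjusted p = 0.661, exact permutation p = 0.0397). Nop58, a core protein of the box C/D particles that modify ribosomal RNA, ranged from 181 to 225 CPM in CM and from 172 to 183 CPM in CM/miR-126Δ/Δ mice, with a log2 fold change of -0.20 (edgeR p = 0.00922, adjusted p = 0.661, exact permutation p = 0.0238). Srm, spermidine synthase, ranged from 60.3 to 87.5 CPM in CM and from 51.6 to 70.2 CPM in CM/miR-126Δ/Δ mice (log2 fold change -0.30, edgeR p = 0.0117, adjusted p = 0.708, exact permutation p = 0.0556). The other 4 were Nop56 and Nolc1 of the nucleolus, the arginine methyltransferase Prmt5, and Odc1, ornithine decarboxylase, with exact permutation p = 0.0556, 0.0952, 0.0397 and 0.111. Odc1 was highest in CM mouse 2, and without it the log2 fold change was -0.15 in place of -0.34. Promoter windows were found for 26 of the 32 targets, 32 windows in all, and 9 windows (28.1%) held the E-box, among them those of Cdk4, Ldha and Eif4e. Of the 8 lower targets 7 had a window (all but Srm), and 0 of the 7 held the E-box. The genotypes overlapped in each of the 32 targets, and they were fully separated in 1.1% of all genes tested.

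Single mice weighed on this count. CM mouse 1 had the highest level among CM mice in 23 of the 32 targets, and without it 4 targets in place of 8 had an unadjusted p under 0.05 and the median log2 fold change was -0.07, with 2.35% of all genes lower in that set. Without CM mouse 5 the count was 14 and the median -0.18, with 2.69% of all genes lower. The mean log2 CPM of the list was 6.86, 6.77, 6.65, 6.65 and 6.53 in CM mice 1 to 5 and 6.56, 6.48, 6.61, 6.58 and 6.50 in CM/miR-126Δ/Δ mice, so that 4 of 5 CM mice lay above all CM/miR-126Δ/Δ mice and CM mouse 5 lay among them. The mean total count was higher in CM (two-sided exact permutation test, p = 0.0476), although CM mouse 3 had the shallowest library of all 10. The RNA concentration was 20.6 to 40.9 ng/ul in CM and 16.1 to 29.5 ng/ul in CM/miR-126Δ/Δ mice, a difference with p = 0.0794 in the same exact test. The part of depth and RNA yield in the result was not tested.

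Genes that MYC is known to repress were listed with the same test. Of 9, 0 passed an unadjusted p under 0.05 and 8 had a fitted change below 0, with a median of -0.12. Of the 18747 genes tested 6.61% had an unadjusted p under 0.05 and 9865 were below 0, with a median of -0.01. Cdkn1a, the inhibitor p21 of the cell cycle, was measured at 13.7, 36.0, 9.91, 13.6 and 17.9 CPM in CM and 12.3, 10.7, 7.31, 19.9 and 7.82 CPM in CM/miR-126Δ/Δ mice, and CM mouse 2 stood above all others, with a log2 fold change of -0.25 without it (log2 fold change -0.65, SE 0.329, edgeR p = 0.0675, exact permutation p = 0.183). Gas1, a growth arrest gene, was near 0, at 0 to 0.132 CPM in every library. Cdkn2b was likewise near 0.

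The genes that work with the network proteins came next. Of 14 MYC cofactors 0 passed an unadjusted p under 0.05, where 6.61% of all genes did. The members with the smallest p were Wdr5, a chromatin protein that anchors MYC (126 to 142 CPM in the CM mice and 122 to 130 CPM in the others, log2 fold change -0.10, edgeR p = 0.0703, exact permutation p = 0.0317), and Ruvbl2, an ATPase of the TIP60 complex (log2 fold change -0.13). The median of the 14 was -0.03. Of 15 genes that set the stability of the MYC protein 1 was lower at an unadjusted p under 0.05, where 3.32% of all genes were. This was Gsk3a, a kinase that marks MYC for degradation, at 84.2 to 97.6 CPM in CM and 81.6 to 88.6 CPM in CM/miR-126Δ/Δ mice (log2 fold change -0.13, edgeR p = 0.0249, adjusted p = 0.746, exact permutation p = 0.0238). Its unadjusted p was over 0.05 when CM mouse 1, 4 or 5 or CM/miR-126Δ/Δ mouse 2 or 4 was left out. Fbxw7, the ubiquitin ligase subunit that reads this mark, had a log2 fold change of 0.11 (edgeR p = 0.0974, exact permutation p = 0.0873), and the median of the 15 was -0.01. Of 9 corepressor genes 1 was lower, with the same background of 3.32%. This was Sap30, a SIN3 subunit, at 23.5 to 28.1 CPM in CM and 19.6 to 26.7 CPM in CM/miR-126Δ/Δ mice (log2 fold change -0.21, edgeR p = 0.0427, adjusted p = 0.748, exact permutation p = 0.0397), and its unadjusted p was over 0.05 in 8 of the 10 sets that left out 1 mouse. Sap18, of the same complex, had a log2 fold change of -0.14, and the median of the 9 was -0.06.

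The other dimer partners were Mga, a large repressor that binds MAX (395 ± 34.3 CPM in CM), Mlxip (164 ± 12.1 CPM) and Mlxipl, which at 0.137 CPM was near the level of 3 reads. None of these 3 passed the test. The targets of the MLX branch, Txnip and Arrdc4, had log2 fold changes of 0.08 and 0.21, neither of which passed the test. The change of Arrdc4 was 0.11 without CM mouse 2 and 0.34 without CM mouse 5. Of 8 cell cycle genes 0 passed an unadjusted p under 0.05, where 6.61% of the 18747 genes tested did. On either side of 0 lay 4 of them, where 9865 of all genes tested were below 0. The smallest p was that of Pcna, the sliding clamp of replication (log2 fold change -0.15, edgeR p = 0.0911, exact permutation p = 0.127), and the next that of Mcm5 of the replicative helicase (-0.08). Spred1 and Plk2, which hold the match to the seed shown above, had log2 fold changes of 0.17 (SE 0.111, edgeR p = 0.147, exact permutation p = 0.254) and -1.11 (SE 0.66, edgeR p = 0.115, exact permutation p = 0.23), and Plk2 ranged from 0.958 to 37.0 CPM between mice. Without CM mouse 2, which had the 37.0 CPM, its log2 fold change was -0.33. With the mouse number as a block in the fit, the unadjusted edgeR p was 0.0234 for Spred1 and 0.00559 for Plk2. The adjusted p of that fit was 0.453 and 0.28. By quantitative PCR of preleukemic LSK cells, the study had reported higher levels of both transcripts after deletion of miR-126. The fitted change here had that direction for Spred1 and the opposite direction for Plk2, and neither passed after adjustment. The cause of the difference for Plk2 was not tested.

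**Figure D3:**
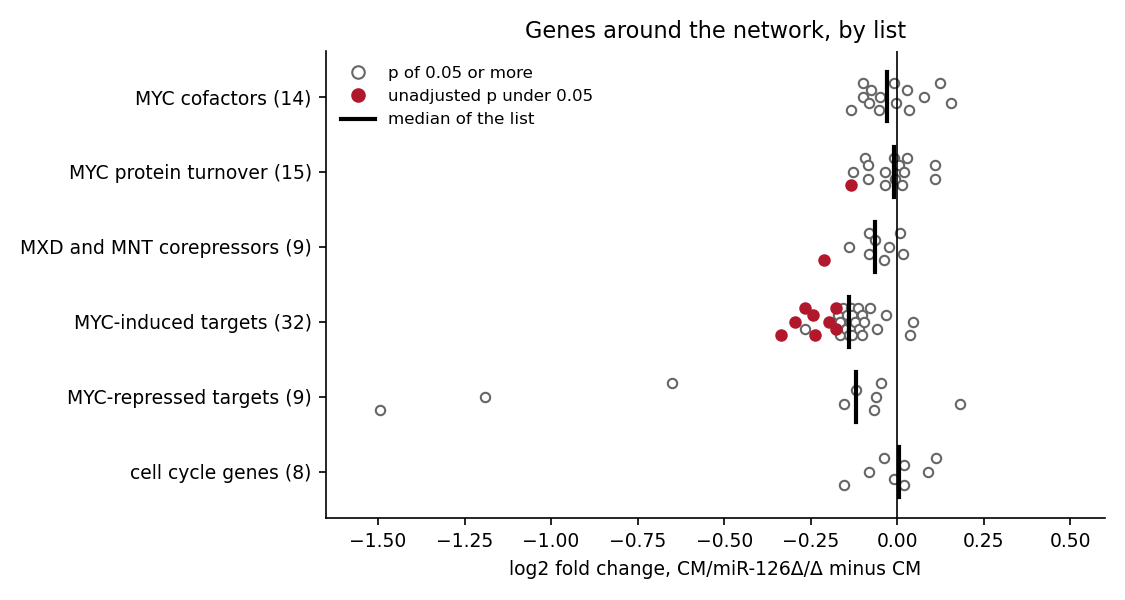
Log2 fold change, CM/miR-126Δ/Δ relative to CM, of every gene in 6 lists around the network, with 1 point per gene (filled red at an unadjusted p under 0.05) and a bar at the median of each list. The 32 MYC-induced targets lie to the left of 0 but for 2, with a median of -0.14, and hold 8 of the 10 red points.

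The identity of the cells was checked on markers. The genes of the sort, Kit (mean 859 CPM in CM, 929 CPM in CM/miR-126Δ/Δ mice) and Ly6a, which encodes Sca1 (57.3 and 58.5 CPM), were present in all libraries, as were Cd34 and Flt3. Of 8 LSK markers 2 were higher in CM/miR-126Δ/Δ mice at an unadjusted p under 0.05 and 0 lower, where 3.29% of all genes were higher and 3.32% lower. Hlf, a stem cell transcription factor, was at 588, 537, 526, 588 and 664 CPM in CM mice 1 to 5 and 816, 798, 704, 601 and 671 CPM in CM/miR-126Δ/Δ mice 1 to 5 (log2 fold change 0.31, SE 0.099, edgeR p = 0.00797, adjusted p = 0.661, exact permutation p = 0.0159). Mecom, also of stem cells, had a log2 fold change of 0.24 (edgeR p = 0.0393, adjusted p = 0.748, exact permutation p = 0.0952). Of 12 markers of mature lineages 11 were detected, and Hba-a1 was at 0 in all libraries, with Hbb-bs at 0 in 9. The summed level of the 12 was 1616 to 3210 CPM in the CM mice and 1356 to 3834 CPM in the others, and most of it was Mpo, the granule enzyme that myeloid progenitors also express, at 1231 to 3622 CPM. Cd79a, Cd3e, Ms4a1 and Ly6g, markers of mature lymphoid cells and neutrophils, stayed at 2.97 CPM or below. Of the 11 detected 1 was lower at an unadjusted p under 0.05 and 0 higher, where 3.32% of all genes were lower. Itgam, of myeloid cells, was the one, lower in CM/miR-126Δ/Δ mice (62.0 to 74.1 CPM against 70.4 to 133 CPM in CM, edgeR p = 0.0316, adjusted p = 0.746, exact permutation p = 0.0635), and CM mouse 3 alone had 133 CPM. Without that mouse the log2 fold change of Itgam was -0.14 in place of -0.35. Among the other myeloid genes of the list the log2 fold change was 0.28 for Elane, neutrophil elastase (74.7 ± 30.9 CPM in CM, 90.5 ± 34.4 CPM with the deletion), 0.02 for Mpo and 0.82 for Ly6g, which was below 1 CPM in every mouse, and none of these 3 passed the test. In bulk cells a shift between stem cells and progenitors cannot be told apart from a change of RNA level per cell, and the part of the markers in the target genes' lower levels was not tested.

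Relations between members across mice were computed for all 45 pairs, and none passed the correction. An unadjusted p under 0.05 was reached by 3 of the 45, which are given as values. The smallest p was that of Mxd1 with Mxd4, with Pearson's r = -0.82 (permutation test, p = 0.00459, adjusted p = 0.207) and Spearman's rho = -0.72 (permutation p = 0.0227, adjusted p = 0.537) over the 10 mice. Values were log2 CPM. Without the 2 mice farthest from the median of Mxd1 r was -0.76, and within genotypes it was -0.83 after subtraction of the means. CM/miR-126Δ/Δ mouse 3 had the lowest Mxd1 and the highest Mxd4 of all mice. Myc and Max followed with r = 0.74 (permutation p = 0.0177, adjusted p = 0.399), rho = 0.72 (permutation p = 0.0239, adjusted p = 0.537), and r = 0.71 without the 2 mice farthest from the median. The third was Myc with Mxd1, with r = -0.63 and rho = -0.52 (permutation p = 0.0476 and 0.133, adjusted p = 0.659 and 0.856), r = -0.17 without the farthest 2 and r = -0.81 after subtraction of the genotype means, so that the value depended on which mice were kept and on the centring.

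A relation of Myc with its targets did not pass the test. Over the 10 mice the mean of the 32 induced targets had r = 0.30 with Myc (permutation p = 0.405, adjusted p = 0.872 over 30 relations of members with list means) and rho = 0.22 (permutation p = 0.536, adjusted p = 0.879), with r = 0.36 without the 2 farthest mice and r = 0.03 after subtraction of the genotype means. CM/miR-126Δ/Δ mouse 3, the highest in Myc, was the highest of its genotype in the list mean, but CM mouse 5, the third highest in Myc, was the lowest of its own.

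Over all 10 mice Mxi1, an antagonist, rose with the cell cycle genes, but among the CM mice alone it did not. The mean log2 CPM of the 8 (Mki67, Top2a, Ccna2, Ccnb1, Cdk1, Mcm5, Pcna and Rrm2) had r = 0.85 with Mxi1 (permutation p = 0.00159, adjusted p = 0.0477) and rho = 0.73 (permutation p = 0.0204, adjusted p = 0.392). All 8 single genes had a positive r with Mxi1, and r was 0.88 after subtraction of the genotype means. Without CM/miR-126Δ/Δ mice 1 and 5, the farthest from the median of Mxi1, r was 0.60 (exact permutation test, n = 8, p = 0.121), so the relation rested on these mice. It passed the correction narrowly, and did not with RLE scaling factors, after the subtraction of genotype means, or in 9 of the 10 sets that left out 1 mouse. CM/miR-126Δ/Δ mouse 1 had the highest values of both measures and CM/miR-126Δ/Δ mouse 5 the lowest of both. In CM mice 1 to 5 Mxi1 was at 49.1, 49.8, 50.5, 49.8 and 50.5 CPM. The list mean in these mice was 7.34, 7.36, 7.33, 7.35 and 7.26. CM mice 3 and 5 thus had the highest Mxi1 and the lowest list means of their genotype.

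**Figure D4:**
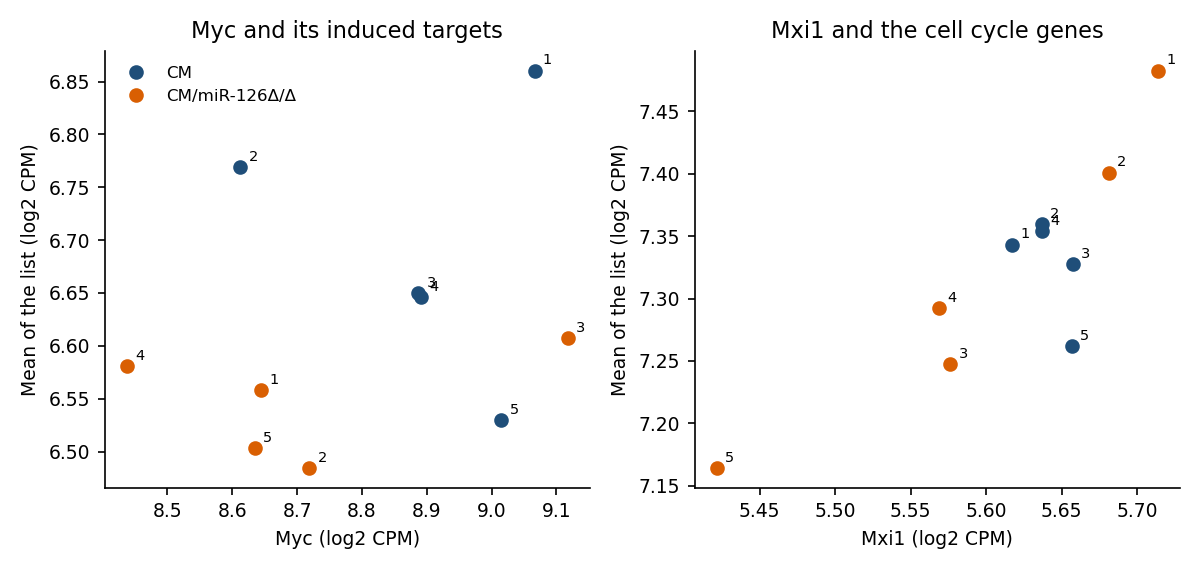
Mean log2 CPM of the MYC-induced targets against Myc (left) and of the cell cycle genes against Mxi1 (right), with 1 numbered point per mouse, CM in blue and CM/miR-126Δ/Δ in orange. Points scatter on the left (r = 0.30), and on the right they run along a line (r = 0.85) whose ends are CM/miR-126Δ/Δ mice 1 and 5. The CM mice lie between these ends and do not follow the line among themselves.

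The genes most like each member were sought among the 11682 with at least 1 RPKM, by Pearson's r of log2 CPM over the 10 mice after subtraction of the genotype means. They are a description, since the closest of so many genes must be close, and several rest on a few mice or on the centring. For Mxi1 they were Ttk (r = 0.98), Ccnb1 (0.96) and Ect2 (0.96), all genes of mitosis, of which Ccnb1 is also in the cell cycle list. Without centring and without the 2 mice farthest from the median of Mxi1, r was 0.68 for Ttk, 0.56 for Ccnb1 and 0.11 for Ect2. For Myc they were Irf2bp2 (0.95), Gdpgp1 (0.94) and Mov10 (0.92), which had r of 0.56, 0.35 and 0.10 without centring and without the 2 mice farthest in Myc. For Mycn they were Ets2 (0.96), Impdh1 (0.92) and Hspa12b (0.92). Max was closest to Lta4h (0.95), Ndufb3 (0.94) and Ctsg (0.93), of which Lta4h and Ctsg are known from myeloid cells. For Mnt they were Crtc3 (0.94), Bcl9 (0.94) and Gprin3 (0.92), for Mlx Pagr1a (0.97), Ppp1r35 (0.94) and Mrpl51 (0.93), for Mxd1 Arl4d (0.97), Gm20219 (0.96) and Rbm39 (0.95), for Mxd3 Abhd16a (0.96), Timm8b (0.93) and Kif18a (0.92), and for Mxd4 Ddx28 (0.96), Pgam1 (0.96) and Kcnk12 (0.95).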

How the data were processed

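RNA was sequenced from 10 mice after depletion of ribosomal RNA. The authors' upstream work was read trimming, Tophat alignment to mm10 and counting over RefSeq gene models by HTSeq, version 0.6.1p1 in the submitters' processing notes. The deposited counts are whole reads per gene without normalization. A deposited table labelled as normalized, in which each count is divided by a constant of its library, was not used. The test was the quasi-likelihood F test of edgeR 4.0.16 under R 4.3.3, set to the method of edgeR 3, on the 18747 genes that had at least 1 count, with TMM factors, genotype as the sole term, both directions, and Benjamini-Hochberg adjustment over all genes. It was tested on simulated data. RPKM used the exon length in the count table and TMM-scaled sizes. SE and intervals are of the log2 fold change. Exact permutation tests covered all 252 splits of the mice, and correlations used 100000 random orders. The rule for named genes was all members, the genes of each list with an unadjusted p under 0.05 (at most 4 by smallest p, otherwise the 2 with the smallest p), marker genes, and the 3 genes most like each member. Further names (Nop56, Nolc1, Prmt5, Odc1, Cdkn2b, Cdk4, Ldha, Eif4e, Cebpa and Thbs1) were chosen after their values were seen. Members and lists were chosen with earlier results of these data known. Alternatives were RLE factors, DESeq2 1.42.0, filterByExpr, an RPKM of at least 1, the quasi-likelihood of edgeR 4, a replicate block, sex as a covariate, Rn45s left out and each mouse left out. Promoters and the microRNA are from RefSeq tables (GRCm38.p6), and 3′ untranslated regions from GENCODE M1, of which symbols and sequences alone were used, since its coordinates are of an older build. Python 3.11.15 and scipy 1.17.1 were used. Some marker genes are not reported here by name.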

Additional observations from a re-analysis of the deposited data

Results flagged for a closer look

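In groups of 5 mice a library was marked when its gap to the nearest other mouse exceeded 0.71 of the group's range (Dixon's critical value), which chance does in about 1 of 20 groups. The genes tested were the members, their neighbors, Egfl7 and the list genes named in the text, in each genotype where their values were not all equal. Of these 125 groups 16 were marked, and of the 20 groups of the network members 0 were. In CM/miR-126Δ/Δ mouse 3 Cebpa was high at 152 CPM (next 89.7), Thbs1 at 76.6 CPM (next 15.1) and Mcm5 at 275 CPM (next 253), and Mlxipl was low at 0.0435 CPM, a single read. In CM/miR-126Δ/Δ mouse 4 Kit was low at 702 CPM (next 963) and Mga at 341 CPM (next 416), and Sap30 was high at 26.7 CPM (next 21.0), as was Ly6g at 0.831 CPM (next 0.0807). Gsk3a was high at 88.6 CPM in CM/miR-126Δ/Δ mouse 1 (next 82.9), and Cdk4 low at 267 CPM in CM/miR-126Δ/Δ mouse 2 (next 289). Among CM mice Plk2 was high at 37.0 CPM (next 12.4) and Odc1 at 57.8 CPM (next 37.5) in mouse 2, Thbs1 at 217 CPM (next 13.2) in mouse 3, and Kit at 979.8 CPM (next 837) in mouse 5. Also in CM mouse 5 Ly6g was at 0.33 CPM (next 0.0819) and Hbb-bs at 0.033 CPM, a single read where the other 4 had 0.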

How the results depend on the processing

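No member had an adjusted p under 0.05 under any of the 18 alternatives, of which 17 gave a value for Mycl. At an unadjusted p under 0.05 members numbered 0 with all mice and 0 to 2 when 1 mouse was left out, the 2 being Myc and Max without CM/miR-126Δ/Δ mouse 3. The MYC-induced targets that were lower numbered 8, 6 to 8 under RLE factors, DESeq2, filterByExpr, the RPKM minimum, edgeR 4, sex and Rn45s, and 4 to 14 with 1 mouse left out. The median of the list stayed between -0.18 and -0.07 under all 18, and that of all genes between -0.01 and 0.00. Calls over all genes at an adjusted p under 0.05 numbered 2, with 45 in DESeq2, 3 in edgeR 4, 4 under filterByExpr, the RPKM minimum or sex, and 1 to 7 with 1 mouse left out. The replicate number, which both genotypes share, was used only as an alternative. The labels name no litter or day for it, and 1 of the 5 same-numbered pairs did not deviate together (r = -0.00). The other 4 had r of 0.161 to 0.425, the mean r of mice with different numbers was -0.05, and 5 of 10 libraries correlated best with their own number, a hint from the data that the numbers may mark something shared. Same-numbered mice also had consecutive library numbers in the column names of the counts. By the sex-linked transcripts they were of the same sex. With the replicate block 1 member had an unadjusted p under 0.05 (Mycn, log2 fold change 0.19, edgeR adjusted p = 0.54), 11 targets were lower (Npm1, Ptma and Ran in addition) and 20 genes were called, while 8.89% of all genes had an unadjusted p under 0.05 and 4.62% were lower, against 6.61% and 3.32% without the block. It also put 7 genes of other lists past the unadjusted threshold, with Spred1, Arrdc4 and Trrap higher and Plk2, Cdkn1a, Cebpa and Pcna lower, and the smallest adjusted p among them was 0.28 (Plk2). Trrap, Npm1, Ptma and Ran were chosen after their values were seen.

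Pairs of members with an adjusted p under 0.05 numbered 0, and 0 to 1 with 1 mouse left out, the 1 being Mycn with Max without CM mouse 1 (r = -0.87). The relation of Mxi1 with the cell cycle genes was the 1 of 30 that passed. It passed with every order of the mice in place of random ones, chosen after seeing the data (adjusted p = 0.0457), and 0 passed on values centred by genotype or with RLE factors, where r was 0.88 and 0.84. With 1 mouse left out the number was 0 to 1 (1 without CM mouse 5) and r was 0.77 to 0.94. All 10 members kept their place in the order of mean levels under RLE factors and in each set that left out 1 mouse. Sap30 had an unadjusted p over 0.05 under filterByExpr, under the RPKM minimum and in 8 of the 10 sets that left out 1 mouse, as had Odc1 and Nolc1 in 7, Gsk3a, Mecom and Itgam in 5, Prmt5 in 3 and Nop56 in 1 of them, while Gnl3, Shmt2, Nop58, Srm and Hlf had one in 0. Txnip turned from 0.08 to -0.01 without CM mouse 2. Mycl and Mxd3 had the lowest counts of the members, 100 and 163 at most. The coefficient of variation of Mycl was 20.1% in CM and 47.3% in CM/miR-126Δ/Δ mice, where counting error gives 11.3% and 13.1%. That of Mxd3 was 12.9% and 22.5%, where counting error gives 8.65% and 9.27%. The part of depth in their intervals was not tested.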

Other observations

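Mice with the number 3 had some values in common in both genotypes. They had the lowest Mycn of their own genotype, and of all mice the highest Mpo (2942 CPM for CM, 3622 CPM for CM/miR-126Δ/Δ, where the other mice had 1231 to 2404 CPM) and the highest Cebpa, a factor of granulocyte and monocyte fate (150 and 152 CPM against 85.1 to 113 CPM). Thbs1, which encodes a matrix protein, had 217 and 76.6 CPM there and 0.782 to 15.1 CPM in the other 8. Whether these mice share a litter or a day is not given in the labels, and the genes were chosen after their values were seen.

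By sex, the log2 difference of Myc between genotypes was -0.03 in females and -0.42 in males, with 3 and 2 mice of each genotype. The interaction in the edgeR fit had an unadjusted p = 0.0914 and an adjusted p of 1.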
